A study of Homo sapiens with 24 samples.

Results

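Matrix metalloproteinases (MMP), ADAM and ADAMTS proteases and their tissue inhibitors (TIMP) were examined in 4 human aneuploid cell lines, each compared with its own parental line by mRNA sequencing. The genes were chosen by name: 47 of the 16742 genes with a row in at least 1 of the 4 comparison tables carry an MMP, ADAM, ADAMTS or TIMP symbol. They are 12 MMP, 15 ADAM, 16 ADAMTS and 4 TIMP genes, of which 28 have a row in all 4 tables, and the tables hold 38 of them for HCT116 5/4, 34 for HCT116* 8/3 c7, 39 for RPE1 5/3 12/3 and 37 for RPE1* 21/3. A mean of 10 normalized counts was reached by 41 genes in at least 1 table, and by the other 6 in none.

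HCT116 is a colon carcinoma cell line and RPE1 a line from human retinal pigment epithelium immortalized with hTERT, and an asterisk marks cells that stably express the histone H2B tagged with GFP. HCT116 5/4 carries 4 copies of chromosome 5 and was compared with HCT116. HCT116* 8/3 c7 carries 3 copies of chromosome 8 and was compared with HCT116*. RPE1 5/3 12/3 carries 3 copies of chromosomes 5 and 12 and was compared with RPE1, and RPE1* 21/3 carries 3 copies of chromosome 21 and was compared with RPE1*. The aneuploid lines were made by transfer of a chromosome into the parental cells, the extra chromosome 12 arose without transfer, and c7 names a clone grown from a single cell, so each aneuploid line is a derived line with a history of its own, and the effects of the extra chromosome and of that derivation cannot be told apart. Each of the 8 lines gave 3 libraries, 24 in all, and no library belongs to more than 1 comparison. The methods speak of biological replicates for the small RNA libraries of the study, and for these mRNA libraries the sources used here do not name separate cultures, so the p-values measure the spread between libraries, which may be technical.

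MMPs are zinc-dependent endopeptidases that cut collagens, laminins and other matrix proteins, either secreted or held at the cell surface (the membrane-type MMPs). ADAMs are membrane-anchored relatives that release the outer part of growth factors, receptors and adhesion proteins, whereas the ADAMTS enzymes are secreted and process procollagens, proteoglycans and microfibril proteins. TIMPs block the active site of MMPs and, for some of them, of ADAM and ADAMTS enzymes, and TIMP2 also takes part in the activation of MMP2 by MMP14 at the surface.

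A gene was called at an adjusted p-value under 0.05 in the authors' DESeq2 comparison, an absolute log2 fold change above 0.6 and a mean of 10 normalized counts or more, and only genes that reach this mean are called tested. Log2 fold changes are aneuploid over parental and are given ± their standard error. Group means of the parental and the aneuploid libraries were implied from the deposited mean over both groups of 3 libraries and the fitted fold change. The standard errors have a ceiling of the kind a prior on the fold changes gives, so large changes of genes with few reads may be understated, and the implied means with them. These means are not averages of single libraries, whose values and depth are not analysed here, so whether single libraries overlap is unknown. In all, 21 of the 47 genes, of which 41 were tested in at least 1 line, were called in at least 1 line. They were 12 called in 1 line and 9 in 2 lines, and none was called in 3 or more. How many of all genes were called in 1 or more lines was not counted, so these counts have no background beside them. The shares of all genes called in each line are given further on.

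Upstream sequences of 4 of these genes are shown because the results turn on them. TIMP3 had the largest fall of the 47 genes, ADAMTS12 the largest rise, ADAM19 lay on a gained chromosome in 2 lines and was lower in both, and MMP15 was lower in both RPE1 lines. Each is the 150 bases before the gene start in RefSeq on GRCh38.p14, written 5′ to 3′ on the strand of the gene, with each CG in capitals. The places are chr22:32801555-32801704 (plus strand) for TIMP3, chr5:33891991-33892140 (minus strand) for ADAMTS12, chr5:157575776-157575925 (minus strand) for ADAM19 and chr16:58025604-58025753 (plus strand) for MMP15.
TIMP3: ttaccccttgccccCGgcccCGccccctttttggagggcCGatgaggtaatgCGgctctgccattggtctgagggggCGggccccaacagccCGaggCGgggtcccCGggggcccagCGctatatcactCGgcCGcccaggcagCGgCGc
ADAMTS12: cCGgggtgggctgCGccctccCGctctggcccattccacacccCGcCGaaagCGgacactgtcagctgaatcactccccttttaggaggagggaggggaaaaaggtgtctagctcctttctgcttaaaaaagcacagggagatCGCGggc
ADAM19: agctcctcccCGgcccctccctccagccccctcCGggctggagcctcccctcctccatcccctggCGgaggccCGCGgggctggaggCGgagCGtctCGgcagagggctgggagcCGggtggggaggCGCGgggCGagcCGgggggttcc
MMP15: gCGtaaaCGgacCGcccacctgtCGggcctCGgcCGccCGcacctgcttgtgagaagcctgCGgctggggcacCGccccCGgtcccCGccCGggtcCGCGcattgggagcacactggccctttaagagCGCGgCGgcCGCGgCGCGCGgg

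The stretches hold 13, 8, 13 and 22 CG dinucleotides, respectively. Over the 250 bases before the start, 28 of the 47 genes had 29 promoters in the RefSeq table, with a median of 23 CG compared with 11 over all 35116 promoters. The letters GGGCGG, read on both strands, were found in 23 of the 29, and in 42.6% of all promoters. The letters TGANTCA, with any base as N, are looser than the AP-1 consensus, which has C or G in the middle. They read the same way on both strands apart from N. Matches were found in 3 of the 29, those of ADAMTS12, MMP7 and MMP20, and in 6.57% of all promoters. The match of ADAMTS12 reads tgaatca, with A in the middle, and is thus not the AP-1 consensus. These matches describe the letters in that window only.

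MMP2 and the genes of its activation stood higher in the RPE1 than in the HCT116 tables. To compare genes, the mean normalized count was divided by the length of the canonical transcript and scaled to a sum of 1000000 in each table, and since the tables were normalized separately, levels are set side by side here without a test. MMP2, the gelatinase A of connective tissue, stood at 2381 in the RPE1 5/3 12/3 table, at 2171 in the RPE1* 21/3 table and at 1.38 in the HCT116 5/4 table, and it has no row in the HCT116* 8/3 c7 table. MMP14, the membrane-type enzyme that activates it, stood at 790 and 716 in the RPE1 tables and at 30.6 and 25.8 in the HCT116 tables, and TIMP2 stood at 843 and 883 against 156 and 147. In the RPE1 tables MMP2 was above 99.7% and 99.6% of genes. The spread of these levels between libraries is unknown, and they pool parental and aneuploid libraries, so the place of a gene that changed need not hold in either line alone, and values that lie close give no order.

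In the HCT116 tables MMP15 was the MMP with the highest pooled level per length, at 43.7 and 52.9, and MMP11 was at 20.8 and 22.5. In the RPE1 tables MMP11 was at 14.7 and 17.3, close to MMP15, and both changed in RPE1 5/3 12/3. Among the ADAM genes, ADAM9 was highest in all 4 tables, between 209 and 548, and ADAM15 the next, between 127 and 175. ADAM10 was between 44.2 and 49.0, and ADAM19 between 45.5 and 79.8. Among the ADAMTS genes, ADAMTS14 was at 33.4 and 10.3 in the HCT116 tables, ADAMTS7 at 16.2 and 15.4 and ADAMTS13 at 8.13 and 7.89. ADAMTS2 was at 8.20 in the HCT116 5/4 table, a pooled level to which its rise in that line contributed, as did that of ADAMTS14. In the RPE1 tables ADAMTS12 was at 42.5 and 71.0, ADAMTS15 at 26.3 and 50.4 and ADAMTS1 at 16.7 and 45.4. TIMP1 led the inhibitors in HCT116 cells, at 375 and 402, and TIMP2 in RPE1 cells. Reads of ADAMTS7 can be split with 3 pseudogenes named after it, so its level is uncertain.

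**Figure D1:**
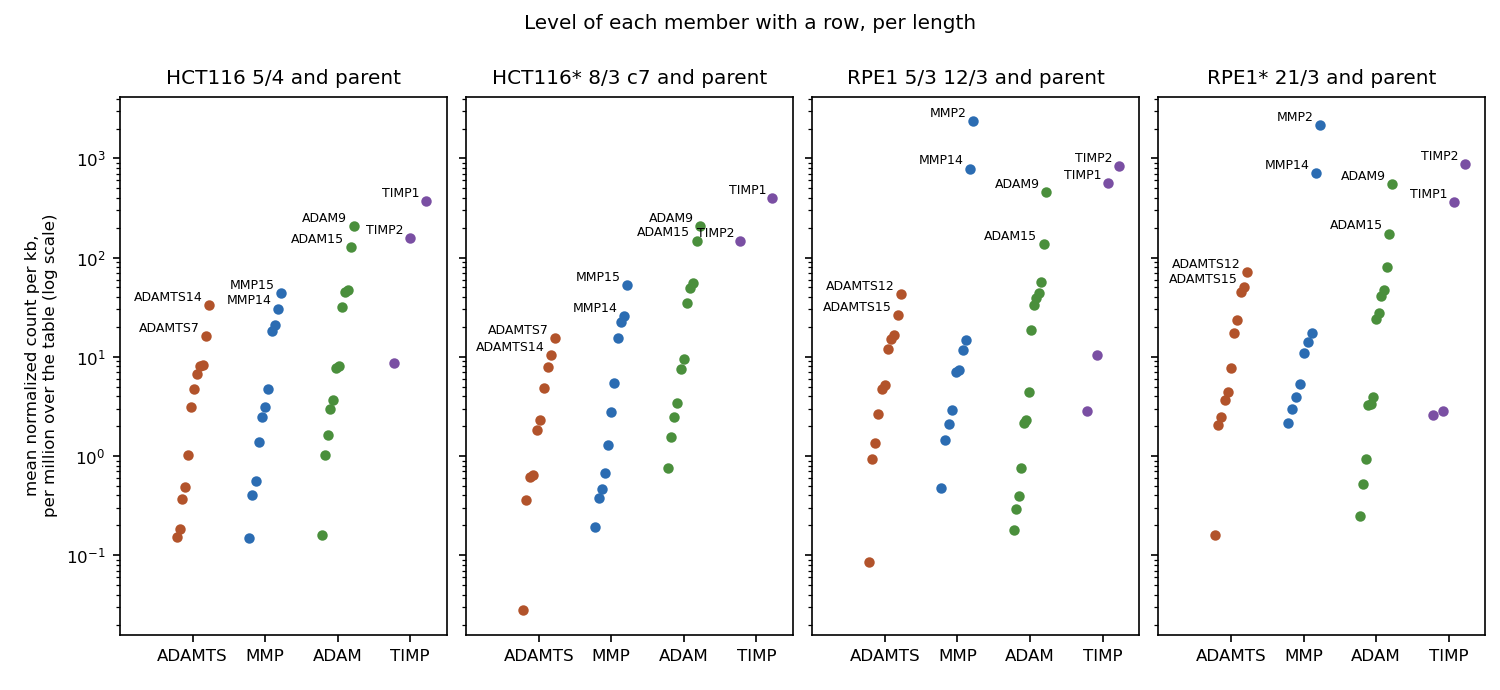
Level of each gene with a row, as mean normalized count per kb of canonical transcript, scaled to a sum of 1000000 in the table (log axis), by family (colour) and comparison table (panel, parental and aneuploid libraries pooled by the authors); each point is 1 gene, and the 2 highest of each family are named. MMP2 and MMP14 stand at 2381 and 790 in the RPE1 5/3 12/3 table and at 1.38 and 30.6 in the HCT116 5/4 table.

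The number of genes called differed widely between the lines. In HCT116 5/4, 9 of 32 tested genes of the families were called, 8 higher and 1 lower, compared with 20.6% of all genes, 10.8% higher and 9.83% lower. In HCT116* 8/3 c7 none of 31 was called by DESeq2, compared with 1.80% of all genes, and 3 were at an unadjusted p-value under 0.05. In RPE1 5/3 12/3, 15 of 35 were called, 3 higher and 12 lower, compared with 16.6% of all genes, 8.13% higher and 8.47% lower. In RPE1* 21/3, 6 of 35 were called, 3 higher and 3 lower, compared with 3.31% of all genes, 1.66% higher and 1.65% lower.

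The median log2 fold change of the families was 0.19 in HCT116 5/4 (all genes -0.00044), 0.0090 in HCT116* 8/3 c7 (all genes 0.0061), -0.56 in RPE1 5/3 12/3 (all genes 0.0020) and -0.13 in RPE1* 21/3 (all genes 0.0033). The median was farthest from that of all genes for RPE1 5/3 12/3, with 26 of 35 genes below 0.

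**Figure D2:**
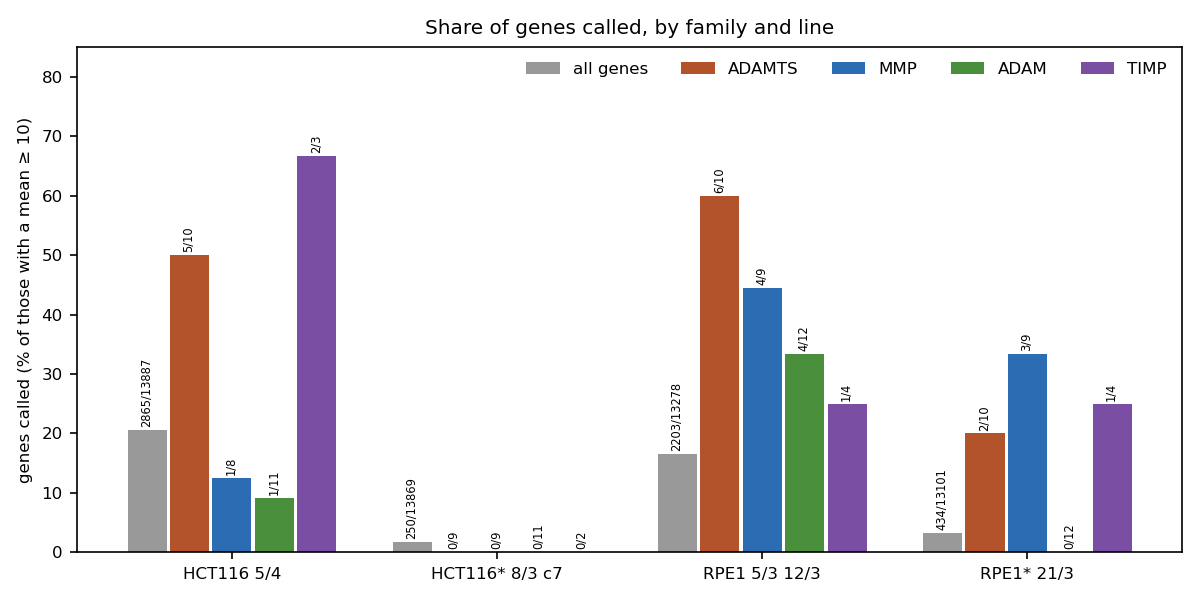
Share of genes called in each line, as a percentage of tested genes, for all genes (grey) and each family; the numbers above the bars are genes called over genes tested. ADAMTS genes reached 5 of 10 in HCT116 5/4, all higher, and 6 of 10 in RPE1 5/3 12/3, all lower, while no gene of any family was called in HCT116* 8/3 c7.

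Of the 10 ADAMTS genes tested in HCT116 5/4, 5 were higher and none lower, compared with 10.8% and 9.83% of all genes: ADAMTS12, ADAMTS19, ADAMTS2, ADAMTS17 and ADAMTS14. Of these, 3 lie on the gained chromosome 5 (ADAMTS2, ADAMTS12 and ADAMTS19), ADAMTS17 lies on chromosome 15 and ADAMTS14 on chromosome 10.

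ADAMTS12, which with ADAMTS7 is known to cut cartilage oligomeric matrix protein, went from an implied mean of 4.30 in HCT116 to 414 in HCT116 5/4, a log2 fold change of 6.59 ± 0.45 (DESeq2 adjusted p-value 2.1e-45). The parental mean was thus near 0, and the size of the change rests on few reads. ADAMTS19, an enzyme with few known substrates, went from 1.18 to 38.8, a log2 fold change of 5.04 ± 0.70 (adjusted p-value 2.5e-11 by DESeq2), again from a parental mean near 0. Neither gene has a row for HCT116* 8/3 c7.

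ADAMTS2 and ADAMTS14 remove the amino-terminal propeptide of fibrillar procollagens. ADAMTS2 rose from 149 to 723 (log2 fold change 2.28 ± 0.32, adjusted p-value 5.3e-11 by DESeq2), and ADAMTS14 from 686 to 2222 (1.70 ± 0.30, adjusted p-value 3.0e-07 by DESeq2). ADAMTS17, an enzyme tied to fibrillin microfibrils, rose from 80.7 to 388 (2.27 ± 0.29, adjusted p-value 2.5e-13 by DESeq2). The other 5 ADAMTS genes of this line lay between -0.54 (ADAMTS6) and 0.34 (ADAMTS15) and were not called.

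Of the 10 ADAMTS genes tested in RPE1 5/3 12/3, 6 were lower and none higher, compared with 8.47% and 8.13% of all genes. Their median was -0.74, and 9 of 10 were below 0. The largest fall was that of ADAMTS14, from an implied mean of 225 in RPE1 to 34.1, a log2 fold change of -2.72 ± 0.27 (adjusted p-value 1.4e-21 by DESeq2). ADAMTS14 was thus higher in HCT116 5/4 and lower in RPE1 5/3 12/3.

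ADAMTS5, the aggrecan- and versican-cutting enzyme of cartilage and vessels, fell from 111 to 47.6 (-1.22 ± 0.31, adjusted p-value 0.00089 by DESeq2). ADAMTS10, a binder of fibrillin, fell from 774 to 354 (-1.13 ± 0.19, adjusted p-value 1.5e-07 by DESeq2), and ADAMTS7 from 801 to 368 (-1.12 ± 0.19, adjusted p-value 1.3e-07 by DESeq2). ADAMTS15, another enzyme of the versican-cutting group, fell from 1752 to 1015 (-0.79 ± 0.23, adjusted p-value 0.0045 by DESeq2), and ADAMTS12 from 3943 to 2446 (-0.69 ± 0.18, adjusted p-value 0.0011 by DESeq2). The other 4 were ADAMTS13, ADAMTS3, ADAMTS1 and ADAMTS6, at -0.69, -0.56, -0.56 and 0.51, and all 10 ADAMTS genes had an unadjusted p-value under 0.05.

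In RPE1* 21/3, 2 of 10 ADAMTS genes were called, compared with 3.31% of all genes, both higher and both among those that fell in RPE1 5/3 12/3. ADAMTS5, which lies on the gained chromosome 21, went from 73.6 to 209 (1.505 ± 0.45, adjusted p-value 0.030 by DESeq2), and ADAMTS10, on chromosome 19, from 512 to 903 (0.82 ± 0.22, adjusted p-value 0.0078 by DESeq2). ADAMTS1, next to ADAMTS5 on chromosome 21 and also a versican-cutting enzyme, was at 0.48 ± 0.39 and was not called.

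**Figure D3:**
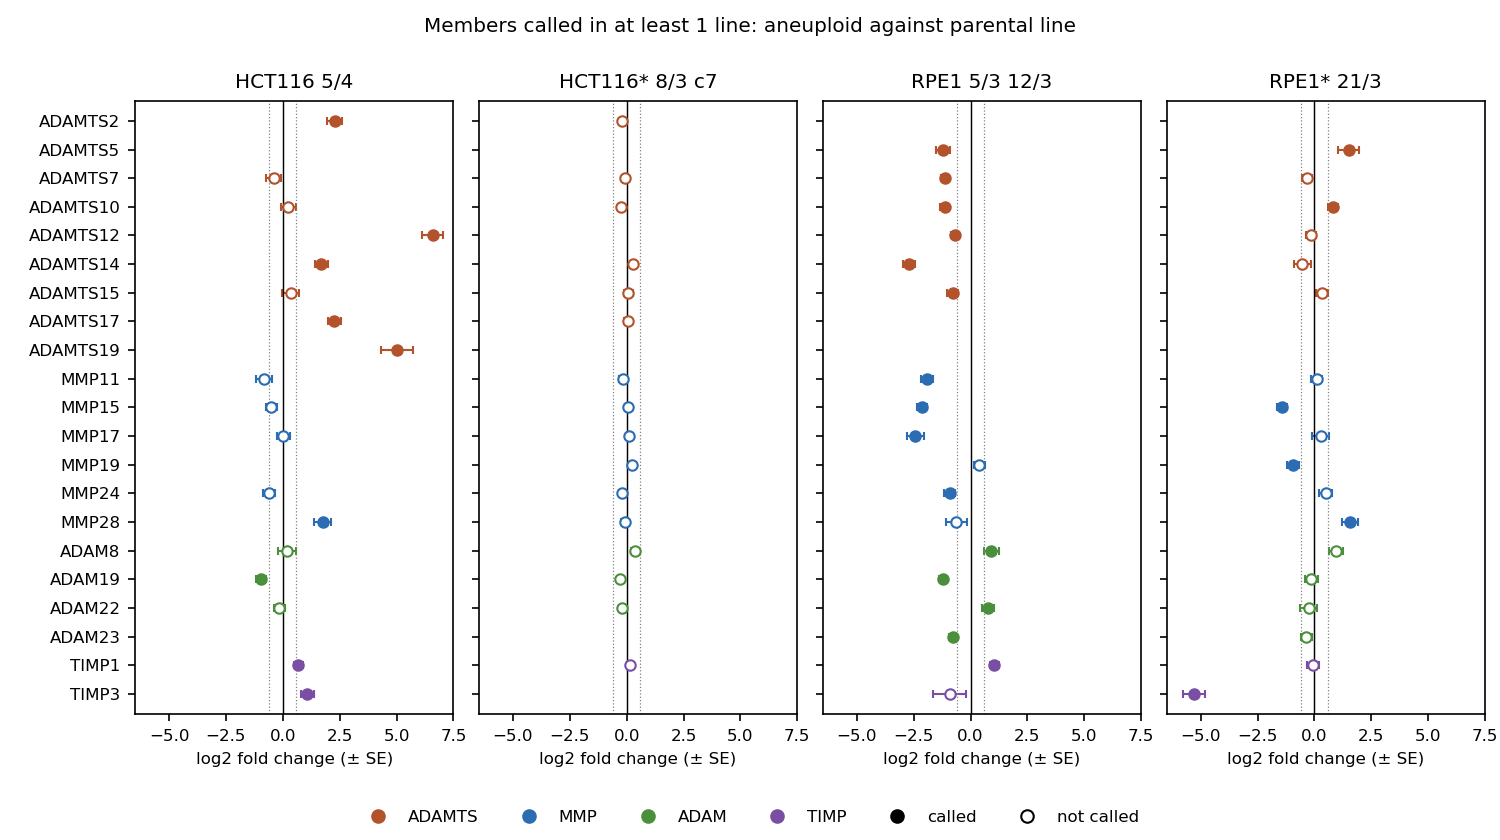
Log2 fold change of aneuploid over parental line (points) with its standard error (bars) for the 21 genes called in at least 1 line, by comparison (panel) and family (colour); filled points were called, open points were not, and a gene without a point has no row or was not tested. Dotted lines mark the threshold of 0.6. ADAMTS12 stands at 6.59 in HCT116 5/4 and TIMP3 at -5.30 in RPE1* 21/3, while in HCT116* 8/3 c7 all points lie between -0.31 and 0.38.

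Of the 9 MMPs tested in RPE1 5/3 12/3, 4 were lower and none higher, compared with 8.47% and 8.13% of all genes. MMP17, anchored to the membrane by a lipid, fell from 74.5 to 13.8 (log2 fold change -2.43 ± 0.38, adjusted p-value 6.7e-09 by DESeq2). MMP15, a transmembrane enzyme like MMP14, fell from 684 to 155 (-2.14 ± 0.23, adjusted p-value 7.1e-19 by DESeq2). MMP11, also called stromelysin 3, fell from 459 to 123 (-1.90 ± 0.27, adjusted p-value 1.3e-10 by DESeq2), and MMP24, a transmembrane enzyme of the nervous system, from 370 to 196 (-0.92 ± 0.23, adjusted p-value 0.00082 by DESeq2).

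In RPE1* 21/3, 3 of 9 MMPs were called, 1 higher and 2 lower, compared with 1.66% and 1.65% of all genes. MMP11, MMP17 and MMP24 were at 0.11, 0.27 and 0.49 there and were not called. MMP15 was lower in this line too, from 588 to 221 (-1.41 ± 0.22, adjusted p-value 1.7e-08 by DESeq2). MMP19, a secreted enzyme of many tissues, fell from 159 to 83.6 (-0.93 ± 0.27, adjusted p-value 0.017 by DESeq2). MMP28, also called epilysin, rose from 34.4 to 102 (1.56 ± 0.33, adjusted p-value 0.00025 by DESeq2). MMP28 was also the only called MMP of 8 tested in HCT116 5/4, compared with 20.6% of all genes. It went from 21.7 to 72.8 there (1.75 ± 0.37, adjusted p-value 3.6e-05 by DESeq2), and in RPE1 5/3 12/3 it stood at -0.64 ± 0.46 without a call. MMP11, MMP24, MMP15 and MMP17 were at -0.84, -0.62, -0.50 and 0.023 in HCT116 5/4 without a call. Of the 8 MMPs there, 5 were above 0 and 3 below.

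The abundant MMPs of RPE1 cells showed no called change. MMP2 was at -0.088 ± 0.20 in RPE1 5/3 12/3 and at -0.27 ± 0.21 in RPE1* 21/3, with 95% intervals of -0.49 to 0.31 and -0.67 to 0.14. MMP14 was at 0.21 ± 0.22 (-0.22 to 0.65) and -0.33 ± 0.17 (-0.66 to 0.0041). A change of 0.6, the threshold of a call, lies within the interval of MMP14 in RPE1 5/3 12/3 as a rise, and within those of MMP2 and MMP14 in RPE1* 21/3 as a fall. MMP25, another lipid-anchored enzyme, was not called in any line, with values between -0.75 and 0.086.

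Of 13 tested ADAM genes 4 were called in any line. These were 4 of 12 in RPE1 5/3 12/3, compared with 16.6% of all genes, and 1 of 11 in HCT116 5/4, compared with 20.6%. None of 11 was called in HCT116* 8/3 c7 and none of 12 in RPE1* 21/3, compared with 1.80% and 3.31% of all genes. The main sheddases ADAM10, which cuts Notch and cadherins, and ADAM17, which releases tumour necrosis factor and ligands of the EGF receptor, were not called in any of the 4 lines. ADAM10 lay between -0.14 and 0.32 and ADAM17 between -0.27 and -0.038. ADAM17 shares 1645 exon bases with IAH1 on the opposite strand, and IAH1 was at -1.15 in HCT116 5/4, so with no strand setting stated for the counting, reads of these genes may not be told apart. ADAM9, a sheddase at high level in all lines, was at -0.50 ± 0.15 in RPE1 5/3 12/3, with an adjusted p-value of 0.0085 by DESeq2 but a change under the threshold of 0.6.

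ADAM19, a sheddase of neuregulins, was the only ADAM called in HCT116 5/4, where it fell from 3040 to 1582 (-0.94 ± 0.22, adjusted p-value 0.00025 by DESeq2). It also fell in RPE1 5/3 12/3, from 4502 to 1934 (-1.22 ± 0.19, adjusted p-value 2.5e-09 by DESeq2). It was thus lower in both lines that gained chromosome 5, on which it lies. The tested genes within 1 Mb of ADAM19 had a median of -0.42 in HCT116 5/4 (6 genes) and of 0.39 in RPE1 5/3 12/3 (7 genes). ADAM19 shares 62 exon bases with CYFIP2 on the opposite strand, which was at 1.26 in RPE1 5/3 12/3 and -0.55 in HCT116 5/4.

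The other ADAM calls were in RPE1 5/3 12/3 as well. ADAM22 and ADAM23 have no protease activity and are known as receptors of LGI proteins in the nervous system. ADAM22 rose from 133 to 226 (0.76 ± 0.25, adjusted p-value 0.015 by DESeq2), whereas ADAM23 fell from 1297 to 765 (-0.76 ± 0.18, adjusted p-value 0.00038 by DESeq2). ADAM8, a sheddase best known from leukocytes, rose from 45.8 to 86.6 (0.92 ± 0.31, adjusted p-value 0.020 by DESeq2). In RPE1* 21/3 ADAM8 was at 0.97 ± 0.31 with an adjusted p-value of 0.053 by DESeq2 and was not called.

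Of the 4 inhibitors TIMP1 and TIMP3 were called. In HCT116 5/4 both were, 2 of 3 tested, compared with 20.6% of all genes. None of 2 was called in HCT116* 8/3 c7, where all genes stood at 1.80%. For RPE1 5/3 12/3 the count was 1 of 4, beside 16.6% of all genes. It was 1 of 4 for RPE1* 21/3 as well, beside 3.31%. TIMP1, the broad MMP inhibitor encoded on chromosome X, rose in both lines that gained chromosome 5, from 1729 to 2785 in HCT116 5/4 (0.69 ± 0.20, adjusted p-value 0.0057 by DESeq2) and from 2468 to 5115 in RPE1 5/3 12/3 (1.05 ± 0.21, adjusted p-value 9.3e-06 by DESeq2). It was at 0.13 ± 0.12 in HCT116* 8/3 c7 and -0.048 ± 0.26 in RPE1* 21/3. In the Wald tests between lines given further on, the change of TIMP1 differed between the RPE1 comparisons. It was not shown to differ between the HCT116 comparisons.

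TIMP3 binds to the matrix and also inhibits ADAM17 and ADAMTS enzymes. In RPE1* 21/3 it went from an implied mean of 182 to 4.62, a log2 fold change of -5.30 ± 0.47 (adjusted p-value 5.0e-27 by DESeq2), the largest fall among the families. In HCT116 5/4 it rose from 200 to 424 (1.08 ± 0.29, adjusted p-value 0.0014 by DESeq2). It was at -0.93 ± 0.71 in RPE1 5/3 12/3, with a standard error well above the median of 0.21 of that table, and was not called. The gene has no row for HCT116* 8/3 c7. The 4 tested genes within 1 Mb of TIMP3 were between -0.14 and 0.21 in RPE1* 21/3.

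TIMP2, the most abundant inhibitor in RPE1 cells, was not called in any line, with values between -0.25 and 0.14. It lies on the distal long arm of chromosome 17, and in HCT116 5/4 the 258 tested genes of that chromosome beyond 50 Mb were at a median of -0.45, where TIMP2 was at 0.14 ± 0.20. TIMP4, with rows in the RPE1 tables only, was at -0.52 ± 0.39 and -0.37 ± 0.45. It shares 170 exon bases with SYN2 on the opposite strand.

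The family genes on gained chromosomes were spread widely around the median of their chromosome. In HCT116 5/4 the 621 tested genes of chromosome 5 had a median log2 fold change of 0.78. Of its 5 family genes ADAMTS12, ADAMTS19 and ADAMTS2 lay above 97.6%, 95.8% and 87.6% of these genes, ADAMTS6 at -0.54 ± 0.48 below 95.01% of them, and ADAM19 below 97.4%. The trisomic chromosome 5 of RPE1 5/3 12/3 had a median of 0.53, and ADAM19 and ADAMTS12 were below 97.6% and 96.3% of its genes, with ADAMTS6 at 0.51 ± 0.24 close to the median.

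Chromosome 12 of the same line had a median of 0.43 over 687 genes. MMP17, close to the end of its long arm, was below 98.3% of them, while MMP19 was at 0.38 ± 0.23 and ADAM1, which the annotation matches by its older name to the pseudogene ADAM1A, at 0.81 ± 0.33 with an adjusted p-value of 0.068 by DESeq2. MMP19 shares 821 exon bases with TMEM198B on the opposite strand, which was at 0.72. The 14 genes within 1 Mb of MMP17 were all between 0.032 and 0.65.

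In HCT116* 8/3 c7 the 467 genes of chromosome 8 had a median of 0.22, and ADAM9 and ADAM32, the latter best known from testis, were at 0.19 ± 0.11 and 0.12 ± 0.17. In RPE1* 21/3 the 127 genes of chromosome 21 had a median of 0.55. ADAMTS1 was near it, and ADAMTS5 was above 89.8% of the chromosome.

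**Figure D4:**
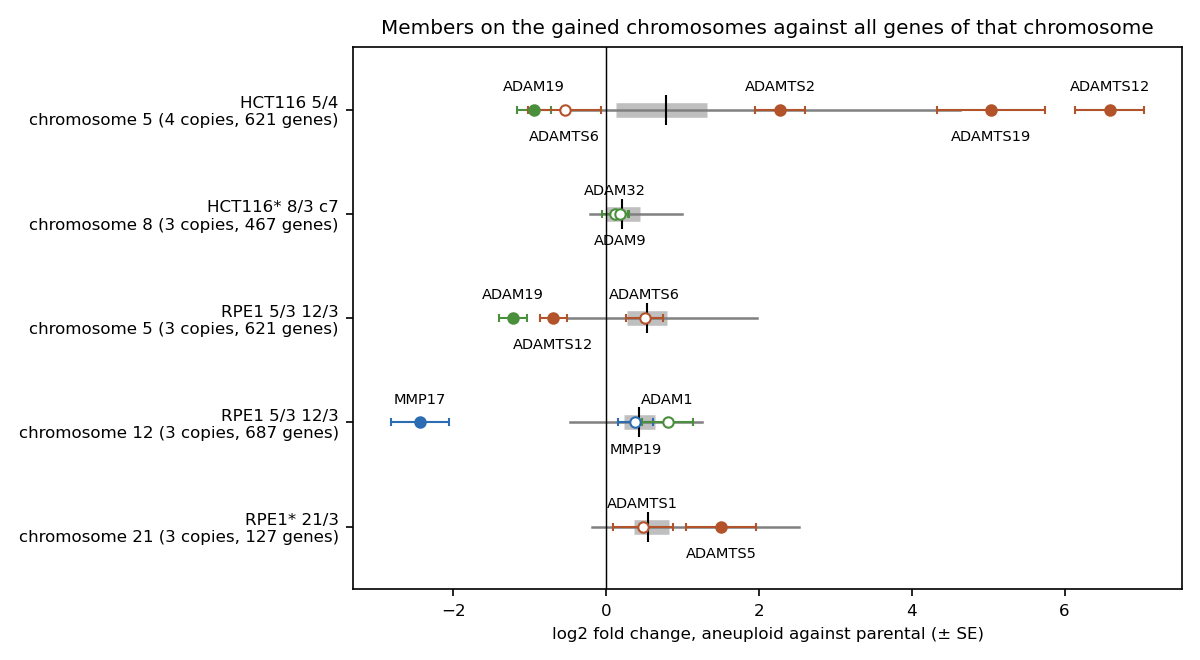
Log2 fold change (± standard error) of family genes on each gained chromosome (points, colour by family, filled when called), against all tested genes of that chromosome (black tick, median; thick grey bar, middle 50%; thin line, 5% to 95%). ADAM19 in both lines with extra chromosome 5, ADAMTS6 in HCT116 5/4, ADAMTS12 in RPE1 5/3 12/3 and MMP17 lie below the thin line, and ADAMTS12 and ADAMTS19 in HCT116 5/4 lie above it.

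The MMP cluster on the long arm of chromosome 11 holds 9 genes on GRCh37: MMP7, MMP20, MMP27, MMP8, MMP10, MMP1, MMP3, MMP12 and MMP13. It includes the matrilysin MMP7 of gut epithelium, the collagenases MMP1, MMP8 and MMP13 and the stromelysins MMP3 and MMP10. Rows were held for 2 of them. MMP7 had means of 4.90 and 4.35 in the HCT116 tables, with log2 fold changes of -2.27 ± 0.77 (adjusted p-value 0.018 by DESeq2) in HCT116 5/4 and -0.050 ± 0.12 in HCT116* 8/3 c7. MMP20, the enzyme of tooth enamel, had a mean of 3.16 in HCT116* 8/3 c7 and was at 0.20 ± 0.10. Both are under the minimum of 10, and neither RPE1 table has a row for any gene of the cluster. The standard errors of HCT116* 8/3 c7 have a ceiling of 0.18, which also holds for genes with few reads. The small errors of MMP7 and MMP20 there thus do not show that these genes were unchanged.

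The genes around the cluster are measured in all lines. The 9 tested genes within 1 Mb had a median of 0.38 in RPE1 5/3 12/3, and the 458 tested genes of chromosome 11 beyond 60 Mb one of 0.41, although chromosome 11 is not among those its label gives as gained. Beyond 60 Mb the medians of the other 3 lines were between -0.0037 and 0.016. ADAMTS15, which lies on that stretch of chromosome 11, was lower in RPE1 5/3 12/3 nevertheless.

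The aneuploid lines of the same parental cell type were then compared by testing the difference of the log2 fold changes over its standard error (Wald test), with p-values adjusted over all genes tested in both tables. In the RPE1 pair, 12 of 35 genes differed, compared with 9.32% of all genes. Values higher in RPE1 5/3 12/3 were those of TIMP3, MMP19 and TIMP1, and values lower there those of ADAMTS5, MMP17, MMP28, ADAMTS14, MMP11, ADAMTS10, MMP24, ADAMTS15 and ADAM19. The change of MMP15 did not differ by this test, with a difference of -0.73 (95% interval -1.35 to -0.11, adjusted p-value 0.15 by the Wald test of the difference). The interval for ADAM8 was -0.91 to 0.81 around a difference of -0.049.

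In the HCT116 pair, 4 of 28 genes differed, compared with 18.9% of all genes. ADAMTS2, ADAMTS17, MMP28 and ADAMTS14 were each more increased in HCT116 5/4. The fall of ADAM19 in HCT116 5/4 was not shown to differ from the -0.31 ± 0.12 of HCT116* 8/3 c7 (difference -0.63, 95% interval -1.12 to -0.13, adjusted p-value 0.063 by the same Wald test). The rise of TIMP1 in HCT116 5/4 was not shown to differ either. Its difference was 0.56 (95% interval 0.097 to 1.03, adjusted p-value 0.082 by the same Wald test). Of the 9 genes called in 2 lines, 5 were called in opposite directions, and how many of all genes were so was not counted. Of these 5, ADAMTS5 and ADAMTS10 are covered by the test of the RPE1 pair. ADAMTS12, ADAMTS14 and TIMP3 had their opposite calls in an HCT116 line and an RPE1 line, a difference that was not tested.

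**Figure D5:**
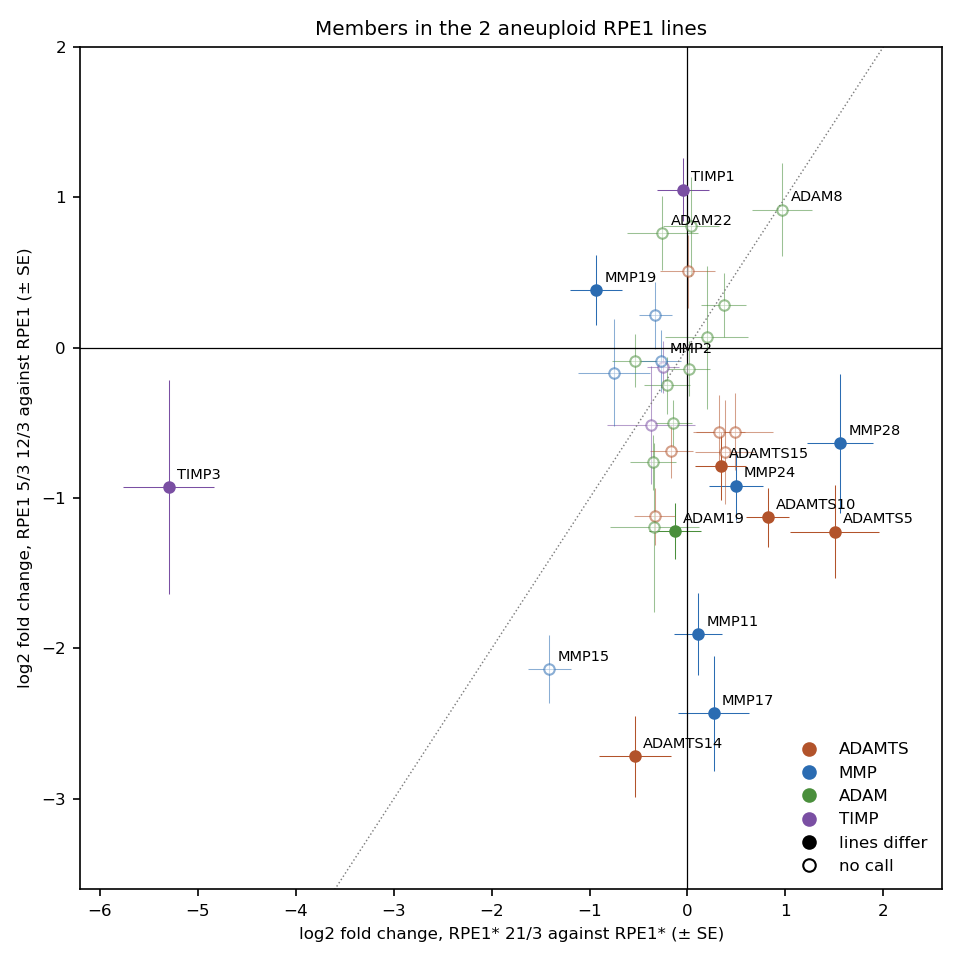
Log2 fold change of the 35 genes tested in both RPE1 comparisons, with RPE1* 21/3 on the horizontal and RPE1 5/3 12/3 on the vertical axis; bars are standard errors, the dotted line marks equal values, and filled points are the 12 genes whose change differed between the lines. MMP15 lies low in both, at -1.41 and -2.14, and ADAMTS5 and ADAMTS10 lie on opposite sides of 0.

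Genes that work with these proteases were counted by lists. Of the list of activators and surface regulators of MMPs and ADAMs (proprotein convertases, the plasminogen system, iRhoms and tetraspanins), 4 of 16 were higher and 3 lower in HCT116 5/4, 1 of 15 higher and 5 lower in RPE1 5/3 12/3, and none was called of 17 in HCT116* 8/3 c7 and of 15 in RPE1* 21/3. All genes were called higher and lower in 10.8% and 9.83% in HCT116 5/4 and in 8.13% and 8.47% in RPE1 5/3 12/3. In HCT116* 8/3 c7 and RPE1* 21/3, 1.80% and 3.31% of all genes were called. PLAT, PLAUR and TSPAN14 were at 0.56, 0.47 and 0.37 in HCT116* 8/3 c7, under the threshold of 0.6. Their adjusted p-values were 0.047, 0.030 and 0.043 by DESeq2. PLAUR and PLAT, of the plasminogen system, rose in HCT116 5/4 together with TSPAN17 and the convertase FURIN, at 0.86, 1.15, 1.11 and 0.81. Of the other tetraspanins on the list, TSPAN14 and TSPAN15 were at -1.22 and -1.03 there. TSPAN5 and TSPAN33 were at -0.15 and -0.039 and were not called, so the tetraspanins went both ways. The iRhom RHBDF2, which brings ADAM17 to the surface, was at -0.95. TSPAN10 was at -1.07 in RPE1 5/3 12/3, the activator PLAU at -0.92, the membrane-held MMP inhibitor RECK at -0.88, PCSK7 at -0.77 and RHBDF2 at -0.61, and SERPINB2 at 2.26 with a mean of 42.3.

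Of the ligands of the EGF receptor that ADAMs release, AREG fell by 3.92 ± 0.24, EREG by 2.53 ± 0.57 and BTC by 2.01 ± 0.38 in HCT116 5/4. HBEGF rose by 0.94 ± 0.28 there, so that 4 of 6 were called, compared with 20.6% of all genes. AREG rose by 1.18 ± 0.13 in HCT116* 8/3 c7, the only call of 6, compared with 1.80% of all genes. EREG at 0.56 ± 0.13 and EGF at -0.50 ± 0.16 did not reach the threshold of 0.6 there, with adjusted p-values of 0.00098 and 0.048 by DESeq2. TGFA rose by 3.61 ± 0.27 in RPE1 5/3 12/3, where EGF rose too, by 0.81 ± 0.29, and by 2.35 ± 0.25 in RPE1* 21/3. These were 2 of 5 and 1 of 5 tested ligands, compared with 16.6% and 3.31% of all genes.

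Of the ADAMTS substrates and ADAMTS-like genes, 1 of 7 was called in HCT116 5/4, compared with 20.6% of all genes. It was VCAN, the proteoglycan versican and a gene of chromosome 5, which rose from 2132 to 33987 (3.995 ± 0.29, adjusted p-value 4.6e-42 by DESeq2). None of 7 was called in HCT116* 8/3 c7 or RPE1 5/3 12/3, compared with 1.80% and 16.6%, and VCAN was at -0.18 and -0.42. In RPE1* 21/3, 2 of 8 rose, compared with 3.31% of all genes called. They were the ADAMTS-like genes ADAMTSL5 and ADAMTSL4, by 1.35 and 1.05. Of 11 AP-1 and ETS factors, which are known regulators of MMP promoters, FOSL2 and ETS1 rose in HCT116 5/4 by 1.25 and 0.87. FOSL2 rose in HCT116* 8/3 c7 by 0.62 and FOSL1 in RPE1 5/3 12/3 by 0.83, and none was called in RPE1* 21/3. The shares of all genes called were 20.6%, 1.80%, 16.6% and 3.31% in these 4 lines, in the same order.

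The labelled cell types were checked by markers. Of 8 markers of colon epithelium 7 had a row in each HCT116 table, and VIL1 had none. Of 8 markers of retinal pigment epithelium 6 had a row in each RPE1 table, and TYR and TTR had none. RPE65, the visual cycle enzyme that defines this epithelium, had means of 10.4 and 4.58 in the RPE1 tables, compared with 287 and 194 in the HCT116 tables, so this marker goes against the label. MITF, at 1439 and 1124 against 67.4 and 62.0, and BEST1, at 42.7 and 41.3 against 7.499 and 2.62, were higher in the RPE1 tables, and OTX2, at 715 and 419, had a row in those only. PMEL, at 17.8 and 14.8 against 97.1 and 137, was lower. In HCT116 5/4 the epithelial EPCAM and CDH1 were at -2.57 and -2.34 while KRT8 and KRT18 were at 1.25 and 1.57, and of the mesenchymal list VIM, ZEB1 and FN1 were at 2.74, 3.32 and 0.90 and COL1A1 and SPARC at -0.99 and -1.71. The summed mean of the mesenchymal markers with a row was 3272 and 1979 in the HCT116 tables and 609696 and 549921 in the RPE1 tables. These markers moved in the same line as the rises of 5 ADAMTS genes and TIMP3, and their part in those was not tested. Markers also moved in RPE1 5/3 12/3, where COL1A1, RPE65, BEST1 and MITF were at -3.18, -3.27, -1.23 and -1.03 and RLBP1 at 3.35, and their part in the falls of ADAMTS and MMP genes there was not tested. Of the blood markers HBB had no row in any table, PTPRC had means of 6.85 and 10.9 in the RPE1 tables, and CD68 had rows in all tables, with means of 1485 and 1119 in the RPE1 tables, and was called only in RPE1 5/3 12/3, at 0.85. In such bulk samples more cells of a type and more RNA per cell cannot be told apart.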

How the data were processed

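mRNA of 4 aneuploid lines and their parental lines was sequenced with 3 libraries of each, and samples were grouped by their labels. According to the methods of the study, adapters were trimmed with cutadapt, reads were mapped to hg19 with TopHat2 2.0.10 keeping 1 location per read, counted on exons of RefSeq genes with featureCounts 1.4.3, and compared with DESeq2, whose version is not given in the sources used here. No strand setting is stated. The deposited tables hold only these comparisons. The mean signal of a gene is the authors' mean normalized count over both groups, and the log2 fold changes and standard errors come from the authors' fit. The deposited score is the Wald statistic, and the deposited p-value is that of this statistic, adjusted by the authors over all genes of a table. That the deposited columns are related in this way was checked. The planned fit on counts of single libraries was not possible with these tables, and the authors' test named as its substitute was used. Depth per library is unknown, and the standard errors, with a median between 0.14 and 0.25 over genes with a mean of 10 or more, give the precision as fitted. The largest was 0.81 in HCT116 5/4 and 0.18 in HCT116* 8/3 c7, so the errors are not on a common scale between tables.

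The members and lists were chosen with earlier results of these data known. Named were the genes called in a line, the TIMPs, genes of the chromosome 11 cluster and of gained chromosomes, ADAM10, ADAM17 and the 3 highest per length in each family; ADAM9, MMP2, MMP25 and ADAMTS genes outside this rule were named after their values were seen. 1 gene that matches the name pattern and some genes of the lists are not reported here and were left out of the counts. Genes were placed on GRCh37 with GENCODE by symbol or RefSeq synonym, with between 94.7% and 95.2% of each table placed. The Wald test of the difference between lines was tested on simulated data. These were drawn with normal noise of the size of the deposited standard errors, as the test assumes, and without a prior on the fold changes. How the test behaves with such a prior was thus not shown. The scripts ran under Python 3.11.15 with pandas 2.3.3, numpy 2.4.6, scipy 1.17.1 and matplotlib 3.10.9. Alternatives were other minimum means and fold thresholds, p-values adjusted over fewer genes, fold changes centred on genes outside the gained chromosomes, and removal of a normal prior on the fold changes, read from the ceiling of the standard errors.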

Additional observations from a re-analysis of the deposited data

Results flagged for a closer look

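The changes of 16 genes differed between the aneuploid lines of the same parental cell type in the Wald test of the difference, with p-values adjusted over all genes in both tables. In the RPE1 pair these were 12 of 35 tested genes, compared with 9.32% of all genes. In the HCT116 pair they were 4 of 28, a smaller share than the 18.9% of all genes. The values are differences of log2 fold changes with their standard error. In the RPE1 pair (RPE1 5/3 12/3 minus RPE1* 21/3), the matrix-bound inhibitor TIMP3 differed most, by 4.37 ± 0.85, followed among positive differences by MMP19 with 1.31 ± 0.35 and TIMP1 with 1.10 ± 0.34. The negative differences were those of ADAMTS5 with -2.73 ± 0.55, MMP17 with -2.70 ± 0.53, MMP28 with -2.20 ± 0.57, ADAMTS14 with -2.18 ± 0.46, MMP11 with -2.01 ± 0.37, ADAMTS10 with -1.95 ± 0.29, MMP24 with -1.41 ± 0.36, ADAMTS15 with -1.13 ± 0.34 and ADAM19 with -1.09 ± 0.33. The adjusted p-values of the Wald test lay between 2.5e-09 (ADAMTS10) and 0.016 (TIMP1).

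In the HCT116 pair (HCT116 5/4 minus HCT116* 8/3 c7), ADAMTS2 differed by 2.47 ± 0.36, ADAMTS17 by 2.23 ± 0.34, MMP28 by 1.83 ± 0.41 and ADAMTS14 by 1.42 ± 0.34, with adjusted p-values of the Wald test between 2.5e-10 (ADAMTS2) and 0.00031 (ADAMTS14). The lines of each pair also differ in the tagged histone of their parents. The study's list of lines gives HCT116 and HCT116 5/4 as from the Koi laboratory, and HCT116* as made from HCT116 of a cell bank. Its methods name the cell bank for HCT116 as well. In the HCT116 pair 19 genes could not be tested, ADAMTS12, ADAMTS19 and TIMP3 among them, for want of a row or a mean of at least 10 in both tables.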

How the results depend on the processing

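No paired analysis was possible because the deposited tables hold no values of single libraries, and for the same reason leaving out each replicate, a fit with replicate numbers as a block, and other count models were not run. With an absolute log2 fold change above 1, 9 genes were called in RPE1 5/3 12/3 in place of 15. With a minimum mean of 100, 2 genes differed in the HCT116 pair in place of 4. This threshold leaves fewer genes to call by construction. All other counts stayed within 1.5 times the reported count, between 7 and 13 in HCT116 5/4 and between 4 and 8 in RPE1* 21/3. The 91 fold changes of family genes that were checked kept their direction and call after centring and after removal of the prior. Both kept the adjusted p-values as deposited. Removal of the prior can only enlarge a fold change, so by construction no direction could turn and no call could be lost by it. It could only have added calls, and it added none. Genes of the other lists and the markers were not checked in this way. Removal of the prior moved TIMP3 in RPE1* 21/3 from -5.30 to -6.81 and, in HCT116 5/4, ADAMTS19 from 5.04 to 6.72 and ADAMTS12 from 6.59 to 7.21. Each moved by more than 1.5 times on the linear scale. The ceiling of the standard errors that this removal rests on was sharp in HCT116* 8/3 c7, at 0.18 in 250 genes, and in RPE1* 21/3, at 0.56 in 150 genes, and rested on 1 and 3 genes in the other tables. Unadjusted p-values, chosen after seeing the data, gave 11 genes in HCT116 5/4, none in HCT116* 8/3 c7, 18 in RPE1 5/3 12/3 and 8 in RPE1* 21/3.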

Other observations

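Several genes of the families had an adjusted p-value under 0.05 but a mean under 10 normalized counts and were therefore not called. In HCT116 5/4 these were ADAMTS9, a versican-cutting enzyme, at 3.63 ± 0.73 (mean 9.14), ADAM28 at -2.17 ± 0.66 (mean 8.84), ADAMTS16 on the gained chromosome 5 at -2.18 ± 0.70 (mean 7.09) and MMP7. In RPE1 5/3 12/3 they were ADAM33 at -2.96 ± 0.77 (mean 5.44) and ADAMTS16 at 2.63 ± 0.78 (mean 3.72). ADAMTS16 thus lay on opposite sides of 0 in the 2 lines with extra copies of chromosome 5, at means too low for a call. The gelatinase MMP9 had means of 7.45, 13.3 and 9.77 in the tables with a row and was not called.

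Genes near some of the called genes had values of their own. The 6 tested genes within 1 Mb of ADAMTS12 lay between 0.75 and 1.46 in HCT116 5/4, compared with 6.59 for ADAMTS12. The 25 genes around MMP15 had a median of -0.11 in RPE1 5/3 12/3 and 0.010 in RPE1* 21/3. In HCT116 5/4, 6 genes around ADAM19 had a median of -0.42 and none was called, although chromosome 5 as a whole was at 0.78, and 11 genes around ADAMTS6 on the same chromosome had a median of -0.45 with 5 lower.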
